A study of Mus musculus with 6 samples.

Results

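The complement components and regulators are a group of 35 genes, named by their symbols, of which 33 were measured here in irradiated mouse skin. A gene was taken from the transcript cluster (a row of the table, summarising the probes along 1 transcript) that carried its symbol and no other, and each of the 33 had exactly 1 such row among 35556. The measured genes comprised 6 of the classical pathway, 6 of the lectin pathway, 2 of the alternative pathway, 7 of the terminal pathway, 5 receptors and 7 regulators. No row carried C3 or C1s as its only symbol, and both were not analysed here. The samples were dorsal skin of 3 Cbl-b-/- mice, which lack the E3 ubiquitin ligase Cbl-b, and of 3 wild-type (WT) mice of the BL6 background. All 6 mice were matched for sex and age, shaved, and given a single UVB dose of 80 mJ/cm2, and the skin was taken 24 h later. The labels name no cell type to which the deletion is limited, so a difference cannot be assigned to a cell type of the skin. Every array used here came from irradiated skin, so the values compare genotypes after UVB and not skin before and after it.

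Complement is a cascade of plasma proteases and binding proteins that tags microbes, immune complexes and dying cells. The classical pathway starts when C1q binds its target, the lectin pathway when mannose-binding lectins or ficolins bind sugars, and the alternative pathway amplifies deposition of C3 through factor B and properdin. The routes meet at C3, release the peptides C3a and C5a that recruit leukocytes, and can end in a membrane attack complex of C5b to C9, while soluble and membrane regulators restrain the cascade on host cells. The liver makes most of the circulating proteins, and C1q comes mainly from macrophages and dendritic cells. In irradiated skin, complement is known as a source of inflammatory signals and of tags on apoptotic keratinocytes.

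The stretches upstream of C1qb and C1qc are shown because the C1q chain genes, which are neighbours on chromosome 4 in the order C1qb, C1qc, C1qa, moved together from array to array in the values that follow. Each sequence is the 250 bases before the annotated start in RefSeq (GRCm38.p6, minus strand), written 5′ to 3′ along the strand of the gene. Capitals mark GAGGAA on either strand, the core that the macrophage and neutrophil factor PU.1 binds. The stretch of C1qb lies at chr4:136886201-136886450 and that of C1qc at chr4:136892915-136893164.
C1qb: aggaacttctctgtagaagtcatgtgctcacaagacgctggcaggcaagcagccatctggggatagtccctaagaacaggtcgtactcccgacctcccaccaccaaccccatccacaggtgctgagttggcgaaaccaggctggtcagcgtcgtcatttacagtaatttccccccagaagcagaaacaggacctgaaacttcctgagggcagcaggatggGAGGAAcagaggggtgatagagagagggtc
C1qc: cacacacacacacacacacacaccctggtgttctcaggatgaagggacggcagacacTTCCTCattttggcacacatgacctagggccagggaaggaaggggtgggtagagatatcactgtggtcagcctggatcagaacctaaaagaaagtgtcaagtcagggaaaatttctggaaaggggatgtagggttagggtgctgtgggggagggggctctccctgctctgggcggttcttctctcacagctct
The match in C1qb begins 30 bases before the start, and that in C1qc begins 193 bases before it and lies on the opposite strand. RefSeq windows were at hand for 25 of the 33 measured genes, and C1qa was not among them. GAGGAA was present in 4 of the 25 (16.0%; C1qb, C1qc, Fcna and Cd59a), a share under the 23.25% of 32851 windows of the same length. TGANTCA, the letters of an AP-1 site, was present in 2 of the 25 (C3ar1 and C1qbp) beside 6.749% of all windows. TTCNNNGAA, the letters of a STAT site, was present in 3 (Masp2, C7 and C8a) beside 7.02%. A match to GAGGAA can lie inside a match to TTCNNNGAA. All 3 motifs were searched on both strands and were chosen after the expression values had been seen. A match describes letters in a window and not a bound site.

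The values are log2 intensities normalized by the authors, with array medians of 6.30 to 6.34 and correlations between arrays of 0.980 to 0.993 across rows. Cblb checked the genotype, with log2 values of 8.61, 8.69 and 8.61 in Cbl-b-/- skin and 9.90, 9.66 and 9.72 in WT skin. Its difference was −1.12 on the log2 scale (standard error 0.09, adjusted p = 0.0782 from limma). A level was called above background where it exceeded 5.34, the 95th percentile of the means of 1210 rows for odorant and pheromone receptors, genes that skin is known to express little or not at all. The markers of keratinocytes and fibroblasts, the defining cells of skin, were above that level on every array in 6 of 6 and 8 of 8 genes. Hair follicle markers set WT replicate 3 apart, with a median of 9.61 against 5.28 to 7.35 on the other arrays.

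By that background level, 23 of the 33 complement genes were above background on all 6 arrays and 8 on none. The 8 were Masp2, Mbl1, C8a, C8g, C9, Cr2, Cfi and C4bp. Among them are the mannose-binding lectin Mbl1, the pore subunit C9, and the fluid-phase regulators factor I (Cfi) and C4b-binding protein (C4bp). Cr2, a receptor for C3 fragments on B cells, is another. Of the 3 B cell markers measured, Cd79a and Ms4a1 were above background on no array and Cd79b, at 5.19 to 5.76, on 5. Hc was above it on 2 arrays and C6 on 5. For these 10 genes a difference compares signals near background and can understate a true one.

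The complement genes with the largest differences were Masp1, higher in Cbl-b-/- skin, and Cfb, lower in Cbl-b-/- skin. These were the only measured complement genes to meet the study's thresholds (an unadjusted p under 0.05 and at least a 1.5-fold difference) in limma. That is 1 of 33 (3.03%) in the higher direction, where 0.276% of all rows met the thresholds, and 1 of 33 (3.03%) in the lower direction, where 0.945% did. At an unadjusted p under 0.05 there were 5 of 33 (15.2%), beside 6.55% of all rows. The 5 were Masp1, Hc and C8b, higher in Cbl-b-/- skin, and Cfb and Clu, lower. At an adjusted p under 0.05 in limma there were 0, beside 0.00281% of all rows, and with the methods' per-row test 4 had an unadjusted p under 0.05 (12.1%, beside 6.98% of all rows).

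Every Cbl-b-/- array exceeded every WT array in 3 of 33 genes (9.09%, beside 8.66% of all rows), namely Masp1, Hc and C8b. Every Cbl-b-/- array lay under every WT array in 2 of 33 (6.06%, beside 4.89% of all rows), namely Clu and C1qbp. Both shares of genes without overlap are near those of all rows. The log2 difference was above 0 in 20 genes and below 0 in 13, with a median of 0.05 where the median over all rows was 0.02. By pathway the median was 0.10 in the classical, 0.05 in the lectin, −0.41 in the alternative and −0.06 in the terminal pathway, 0.04 in the receptors and −0.04 in the regulators. Without WT replicate 3 the median over all complement genes was −0.05, and 1 gene (Masp1) met the thresholds as higher and 2 (Cfb and C7) as lower.

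**Figure D1:**
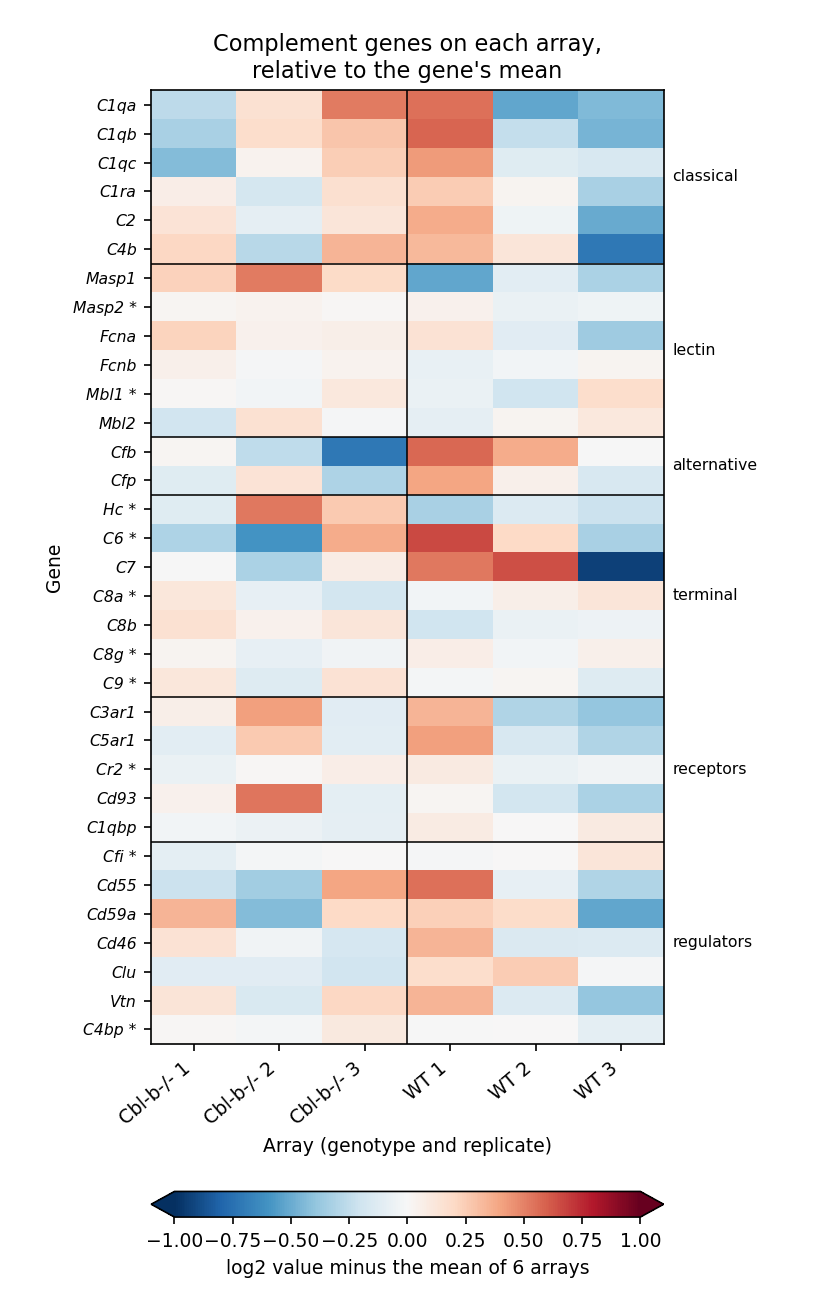
Heat map of the 33 measured complement genes (vertical axis, by pathway) on the 6 arrays (horizontal axis), where colour is the log2 value minus the gene's mean over the arrays and an asterisk marks genes not above background on all arrays. Of the 23 genes above background on all arrays, 11 are highest (red) on WT replicate 1 and 11 are lowest (blue) on WT replicate 3, while Masp1 is red on all Cbl-b-/- arrays and blue on all WT arrays.

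**Figure D2:**
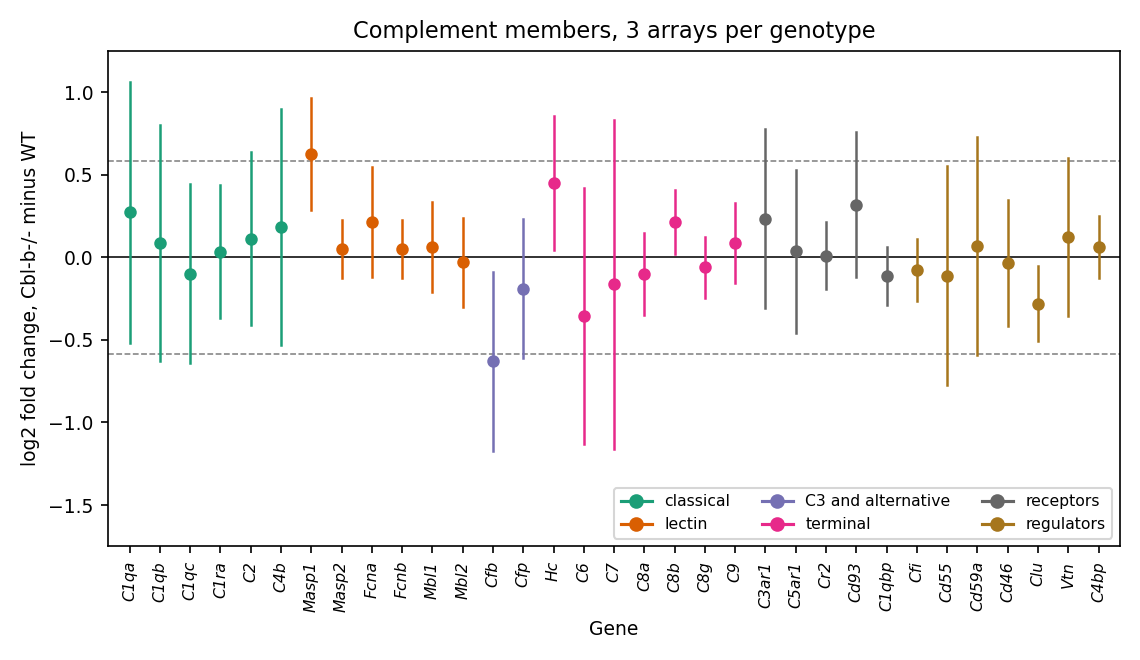
Log2 difference (Cbl-b-/- minus WT, vertical axis) of each measured complement gene (horizontal axis), with its 95% confidence interval from limma over 3 arrays per genotype and dashed lines at the 1.5-fold threshold. Points for Masp1 and Cfb lie outside the dashed lines, and the intervals of Masp1, Hc and C8b lie above 0 while those of Cfb and Clu lie below it.

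In the classical pathway no gene differed by genotype beyond its spread, and 0 of 6 had an unadjusted p under 0.05 in limma. All 6 were above background on every array. C1qa, which encodes the A chain of the recognition molecule C1q, had the largest difference of the pathway. Its log2 values were 8.0, 8.41 and 8.78 in Cbl-b-/- skin and 8.81, 7.74 and 7.82 in WT skin. The highest value was that of WT replicate 1 and the other WT arrays were the lowest of all, so the genotypes overlapped. The difference was 0.27 (standard error 0.33, 95% confidence interval −0.52 to 1.06, adjusted p = 0.878 from limma). When each array was left out it ran from 0.08 (without WT replicate 2) to 0.62 (without WT replicate 1, the highest array). Only in the latter fit did C1qa meet the study's thresholds, with an unadjusted p of 0.0407 from limma.

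The other chains followed the same arrays. C1qb, the B chain, read 9.24, 9.74 and 9.84 in Cbl-b-/- skin and 10.15, 9.33 and 9.10 in WT skin. For C1qc, the C chain, the values were 9.12, 9.58 and 9.79 against 9.97, 9.43 and 9.39. In all 3 chains WT replicate 1 was the highest array and Cbl-b-/- replicate 1 the lowest of its genotype. The log2 differences of C1qb (0.09) and C1qc (−0.10) had opposite signs, and intervals of −0.63 to 0.80 and −0.64 to 0.44. In whole skin, fewer cells of a type and less RNA per cell cannot be told apart.

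Of the proteases that C1q activates, C1ra had a difference of 0.03 (standard error 0.17). A second row that names both C1ra and its close copy C1rb stood at −0.04 (standard error 0.18), and hybridization of either copy to the other's probes was not tested. C1s1, the present symbol of a gene once called C1s, lies next to C1ra and stood at 0.07 (standard error 0.24). It was looked up after the values had been seen and is not counted among the 33.

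C2, the protease of the classical C3 convertase, read 7.43, 7.21 and 7.42 in Cbl-b-/- skin and 7.67, 7.26 and 6.79 in WT skin, a difference of 0.11 (standard error 0.22). For C4b, whose product anchors that convertase, the values were 9.75, 9.26 and 9.88 against 9.87, 9.66 and 8.82, a difference of 0.18 (standard error 0.30). WT replicate 3 was the lowest array in C1ra, C2 and C4b, and without it all 3 differences turned negative, to −0.12, −0.11 and −0.13. C4a, a close copy of C4b, stood at −0.08 (standard error 0.13).

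The lectin pathway held the largest positive difference of the group, in Masp1, a serine protease that circulates with mannose-binding lectins and ficolins and activates Masp2. Its log2 values were 8.71, 9.00 and 8.67 in Cbl-b-/- skin and 7.97, 8.38 and 8.17 in WT skin. Each Cbl-b-/- array was above each WT array. The mean was 8.80 ± 0.18 (SD, n = 3) against 8.17 ± 0.20 (SD, n = 3). The difference of 0.63 (standard error 0.14, 95% confidence interval 0.29 to 0.96), or 1.54-fold, had an adjusted p of 0.671 from limma. Its two-sided exact permutation p was 0.10, the smallest that 3 against 3 arrays can give.

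Masp1 met the study's thresholds in the methods' per-row test too, and the study's text names a gene spelled Msap1 among those changed on these arrays. If Masp1 was meant, which is how the name was read here, the call is not independent evidence. Without Cbl-b-/- replicate 2 or without WT replicate 1 the difference was 0.52, under the fold threshold. Masp1 is carried on chromosome 16, as is Cblb, with 198 protein-coding genes between them in RefSeq.

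The recognition molecules of the pathway had no unadjusted p under 0.05 in limma. Fcna, a ficolin of macrophages, read 6.72, 6.54 and 6.55 in Cbl-b-/- skin and 6.64, 6.38 and 6.14 in WT skin, a difference of 0.21 (standard error 0.14). Fcnb, the ficolin of neutrophil and monocyte granules, stood at 0.05 (standard error 0.07) and Mbl2, a mannose-binding lectin, at −0.03 (standard error 0.11). Masp2, which cleaves C4 and C2, was below background with means of 4.99 and 4.94, and Mbl1 with 4.01 and 3.95. Their differences were 0.05 and 0.06, and that of Masp2 became −0.01 after cyclic loess between arrays.

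In the alternative pathway, Cfb was lower in Cbl-b-/- skin. It encodes factor B, the protease of the alternative C3 convertase, and is a known target of interferon and NF-κB signalling. The log2 values were 8.77, 8.49 and 8.03 in Cbl-b-/- skin and 9.32, 9.11 and 8.74 in WT skin. Cbl-b-/- replicate 1 lay just above WT replicate 3, and with that exception all Cbl-b-/- values were under all WT values. The means were 8.43 ± 0.37 (SD, n = 3) and 9.06 ± 0.29 (SD, n = 3).

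The difference of Cfb was −0.63 (standard error 0.22, 95% confidence interval −1.17 to −0.09, adjusted p = 0.749 from limma), or 1.55-fold lower. Its unadjusted p was 0.0283 in limma and 0.0823 in the methods' per-row test, by which it missed the thresholds. It also missed them without Cbl-b-/- replicate 2 (−0.66, unadjusted p = 0.0508), without Cbl-b-/- replicate 3 (−0.43), without WT replicate 1 (−0.50) and without WT replicate 2 (−0.60, unadjusted p = 0.0740). With a replicate block it met them, at a standard error of 0.08 and an unadjusted p of 0.000998 (adjusted p = 0.482) from limma. Interferon-induced genes had their lowest median on Cbl-b-/- replicate 3 (7.10) and their highest on WT replicate 1 (8.53), as Cfb did, but 0 of their 7 measured genes had an unadjusted p under 0.05 and their median difference was −0.03. Their part in the result was not tested.

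C2 lies next to Cfb on chromosome 17, with no protein-coding gene between them in RefSeq. Its difference of 0.11 was smaller than its standard error of 0.22 and became −0.11 without WT replicate 3, so C2 had no settled direction. Cfp, which encodes properdin, the stabiliser of the alternative convertase made by leukocytes, read 8.73, 8.99 and 8.54 in Cbl-b-/- skin and 9.24, 8.90 and 8.69 in WT skin. These values overlapped, with a difference of −0.19 (standard error 0.17).

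**Figure D3:**
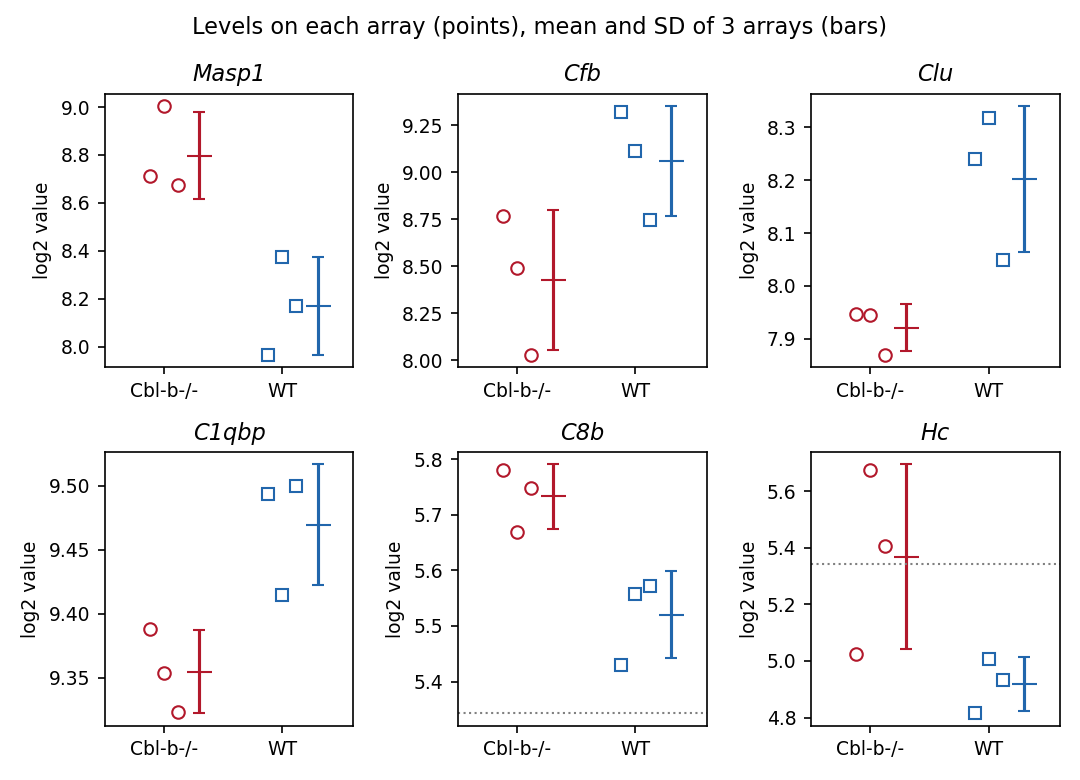
Log2 values (vertical axis) of 6 complement genes by genotype (horizontal axis; circles, Cbl-b-/- mice; squares, WT mice), a point for each array with the mean and SD of 3 arrays beside them and a dotted line at the background level where it falls in range. The genotypes are separate in Masp1, Clu, C1qbp, C8b and Hc, and touch in Cfb, while Hc straddles the background level and C8b lies close above it.

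In the terminal pathway the genes with an unadjusted p under 0.05 were weakly expressed. Hc, the mouse gene of C5, read 5.03, 5.67 and 5.41 in Cbl-b-/- skin and 4.82, 5.01 and 4.93 in WT skin. Cbl-b-/- values were all above WT values, but only those of replicates 2 and 3 were above background. The difference was 0.45 (standard error 0.17, 95% confidence interval 0.05 to 0.85, adjusted p = 0.749 from limma). Its unadjusted p was 0.0339, and it passed 0.05 when any array other than Cbl-b-/- replicate 1 was left out, with values from 0.0537 to 0.0964. Without Cbl-b-/- replicate 1 the difference was 0.62 and met the thresholds.

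C8b encodes the beta chain of C8, which inserts into the membrane before C9. It read 5.78, 5.67 and 5.75 in Cbl-b-/- skin and 5.43, 5.56 and 5.57 in WT skin, and the genotypes did not overlap. The difference of 0.21 (standard error 0.08, adjusted p = 0.749 from limma) was well under 1.5-fold. Its unadjusted p of 0.0366 became 0.0857 after cyclic loess between arrays, and rose to 0.0632 to 0.1115 without Cbl-b-/- replicate 1 or 3 or WT replicate 1 or 2. C8a, the neighbour of C8b on chromosome 4, was below background at −0.10 (standard error 0.10), as were C8g at −0.06 and C9 at 0.09.

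C7, a subunit that anchors the growing complex and is made by fibroblasts and endothelium, had the widest spread among the complement genes. It read 9.08, 8.77 and 9.16 in Cbl-b-/- skin and 9.61, 9.73 and 8.15 in WT skin. WT replicate 3 was the lowest of all arrays and the other WT arrays the highest. The difference was −0.16 (standard error 0.42, 95% confidence interval −1.16 to 0.83), and −0.67 without WT replicate 3, which then met the study's thresholds with an unadjusted p of 0.0042. C6, separated from C7 by 1 gene on chromosome 15, read 5.47, 5.17 and 6.15 against 6.43, 5.97 and 5.45, a difference of −0.36 (standard error 0.32).

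Receptors of the complement peptides overlapped between the genotypes. C3ar1, the receptor for C3a, read 10.02, 10.37 and 9.85 in Cbl-b-/- skin and 10.30, 9.66 and 9.57 in WT skin. C5ar1, the receptor for C5a that draws neutrophils into tissue, read 8.50, 8.86 and 8.50 against 9.01, 8.44 and 8.30. WT replicate 1 and Cbl-b-/- replicate 2 were the highest arrays in both receptors, in opposite order. The differences were 0.23 (95% confidence interval −0.31 to 0.78) for C3ar1 and 0.04 (−0.46 to 0.53) for C5ar1.

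Cd93, a C-type lectin of endothelium and myeloid cells once described as a C1q receptor, had the largest difference among the receptors. It read 8.42, 8.92 and 8.29 in Cbl-b-/- skin and 8.40, 8.20 and 8.06 in WT skin. Cbl-b-/- replicate 2 stood above the rest, and the genotypes overlapped because Cbl-b-/- replicate 3 lay under WT replicate 1. The difference of 0.32 (standard error 0.18, adjusted p = 0.777 from limma) became 0.13 without Cbl-b-/- replicate 2. On that array the markers of neutrophils had their highest median (9.90, against 7.13 to 8.84 elsewhere), and those of blood endothelium were highest too (7.84, against 6.94 to 7.72). Their part in the Cd93 values was not tested.

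C1qbp, a mainly mitochondrial protein that can bind the heads of C1q, was steadier. It read 9.39, 9.35 and 9.32 in Cbl-b-/- skin and 9.49, 9.41 and 9.50 in WT skin. All Cbl-b-/- values lay under all WT values, by a difference of −0.11 (standard error 0.07). The unadjusted p was 0.163 in limma and 0.0258 in the methods' per-row test, which takes each row's own spread alone. Cr2, the receptor of B cells and follicular dendritic cells for C3 fragments, was below background at a difference of 0.01.

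Among the regulators, Clu was lower in Cbl-b-/- skin by less than 1.5-fold. It encodes clusterin, a secreted chaperone that blocks assembly of the membrane attack complex. The log2 values were 7.95, 7.95 and 7.87 in Cbl-b-/- skin and 8.24, 8.32 and 8.05 in WT skin, without overlap. Cbl-b-/- values were close together, with a mean of 7.92 ± 0.04 (SD, n = 3) against 8.20 ± 0.14 (SD, n = 3).

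The difference of Clu was −0.28 (standard error 0.09, 95% confidence interval −0.51 to −0.05, adjusted p = 0.743 from limma). Its unadjusted p was 0.0224 in limma and 0.0283 in the methods' per-row test. It was 0.0631 without Cbl-b-/- replicate 3, 0.0637 without WT replicate 1 and 0.0784 without WT replicate 2, and the difference stayed between −0.36 and −0.22 when each array was left out.

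The membrane regulators differed by less than their spread. Cd55, the decay-accelerating factor that splits C3 convertases, read 7.97, 7.84 and 8.58 in Cbl-b-/- skin and 8.73, 8.10 and 7.88 in WT skin. Cd59a, which blocks entry of C9 into the pore, read 8.52, 7.75 and 8.38 against 8.41, 8.36 and 7.66. The highest array differed between them, WT replicate 1 for Cd55 and Cbl-b-/- replicate 1 for Cd59a, and the differences were −0.11 (standard error 0.28) and 0.07 (standard error 0.28).

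Cd46, a cofactor for cleavage of C3b that mice express mainly in testis, was only just above background, at means of 5.77 and 5.80. Vtn, which encodes vitronectin, a matrix and plasma protein that binds the forming attack complex, read 6.52, 6.25 and 6.61 in Cbl-b-/- skin and 6.74, 6.26 and 6.01 in WT skin. The difference of Vtn was 0.12 (standard error 0.20). Cfi, the protease that cleaves C3b and C4b, and C4bp, its cofactor, were below background at −0.08 and 0.06.

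Variation between mice of the same genotype was wider in these genes, at the median, than over the rows of the table. In 29 of 33 genes (87.9%) the range over the arrays of a genotype was larger than the difference between genotypes, a share no higher than the 93.2% of all rows. The exceptions were Masp1, C8b, C1qbp and Clu. Over the 23 genes above background, the median within-genotype SD was 0.29 on the log2 scale, where it was 0.14 over 15071 rows with 1 symbol above background. For the classical pathway it was 0.39. The 95% confidence interval lay within 1.5-fold in either direction for 17 of 33 genes (51.5%), against 84.1% of rows with 1 symbol, so for the other 16 complement genes a 1.5-fold difference in at least 1 direction was within the interval.

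This variation had a common pattern, with WT replicates 1 and 3 at its ends. WT replicate 1 was the highest array in 11 of the 23 genes above background (47.8%), beside 16.3% of the 15071 rows. WT replicate 3 was the lowest in 11 (47.8%), beside 23.9%. The median of the C1q chains was 9.12, 9.58 and 9.79 on the Cbl-b-/- arrays and 9.97, 9.33 and 9.10 on the WT arrays. WT replicate 1 thus gave the highest C1q median of the 6 arrays. WT replicate 3 gave the lowest, close under that of Cbl-b-/- replicate 1. By single chain, C1qb was lowest on WT replicate 3, but C1qa was lowest on WT replicate 2 and C1qc on Cbl-b-/- replicate 1.

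Macrophage markers shared the high end of this pattern more than the low end. Their median over 8 genes, among them Csf1r, Cd68 and Mrc1, was 8.46, 8.61 and 8.40 on the Cbl-b-/- arrays and 9.01, 8.42 and 8.10 on the WT arrays. The median was again highest on WT replicate 1 and lowest on WT replicate 3. Of the single markers, 7 of 8 were highest on WT replicate 1 but 1 of 8, Csf1r, was lowest on WT replicate 3, and 2 of 8, Fcgr1 and Msr1, were lowest on Cbl-b-/- replicate 3, where the C1q median was high. All 8 were above background on every array, 0 of 8 had an unadjusted p under 0.05 in limma, and their median difference was −0.23. The medians of blood endothelium (6.94) and keratinocytes (10.92) were also lowest on WT replicate 3. The fibroblast median ran from 9.99 on Cbl-b-/- replicate 2 to 10.57 on Cbl-b-/- replicate 3. The part of these cell types in the complement values was not tested. Hepatocyte markers, an index of liver-type transcripts, had medians of 5.48 to 6.10, with 3 of 5 above background on all arrays and 0 at an unadjusted p under 0.05.

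**Figure D4:**
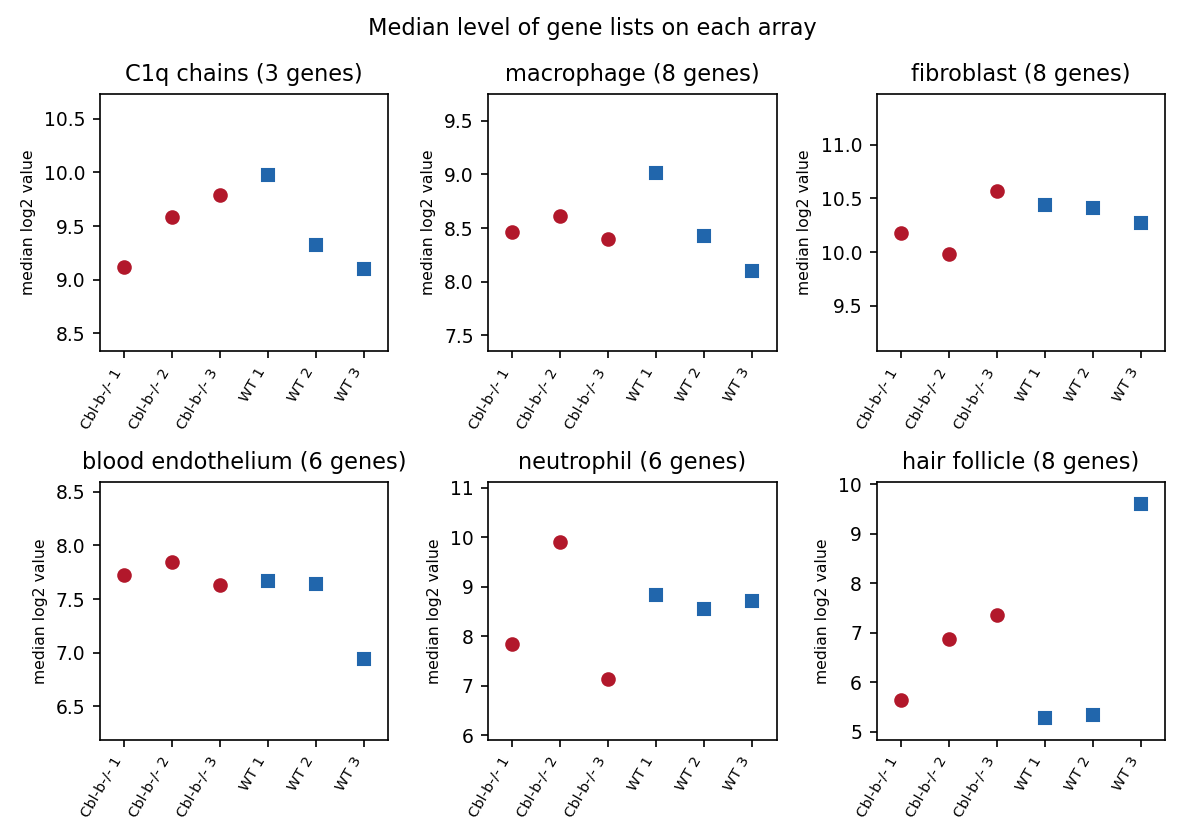
Median log2 value (vertical axis) of the C1q chains and of 5 lists of cell type markers on each array (horizontal axis), Cbl-b-/- as circles and WT as squares. The medians of the C1q chains and of the macrophage markers are highest on WT replicate 1 and lowest on WT replicate 3, and hair follicle markers are highest on WT replicate 3. For the C1q chains, Cbl-b-/- replicate 1 (9.12) lies close above WT replicate 3 (9.10).

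Other genes of the complement system, from a list of 30 of which 25 were measured, gave 1 gene at the study's thresholds. It was higher in Cbl-b-/- skin, a direction in which 0.276% of all rows met the thresholds. Vsig4, a receptor of tissue macrophages that clears particles coated with C3 fragments, read 5.25, 6.04 and 6.36 in Cbl-b-/- skin and 5.18, 4.41 and 4.22 in WT skin. The genotypes did not overlap, but only Cbl-b-/- replicates 2 and 3 were above background. The difference of 1.28 (standard error 0.35, adjusted p = 0.685 from limma) can therefore understate the true one, and it lay between 1.04 and 1.59 when each array was left out. The study's pathway analysis of these arrays lists VSIG4 too, so the call here is not independent evidence.

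Itgax, the alpha chain of complement receptor 4, also did not overlap, with 6.29, 6.38 and 6.38 in Cbl-b-/- skin and 6.27, 6.23 and 5.99 in WT skin, a difference of 0.19 (standard error 0.10). Vsig4 and Itgax were thus 2 of 25 genes higher without overlap, beside 8.66% of all rows. None of the 25 was lower at the thresholds, beside 0.945% of all rows. Their log2 differences were above 0 in 14 and below 0 in 11, with a median of 0.02, the same as over all rows. Serping1, which encodes C1 inhibitor, the brake on C1r, C1s and the lectin pathway proteases, stood at 0.18 (standard error 0.18). Ptx3, a pentraxin that binds C1q, varied most among the Cbl-b-/- arrays of any gene in the list, at 6.74, 8.69 and 5.13 against 8.41, 8.31 and 8.83 in WT skin, and its difference of −1.66 (standard error 0.82) had an unadjusted p of 0.0847. Serping1 and Ptx3 were named after their values had been seen.

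**Figure D5:**
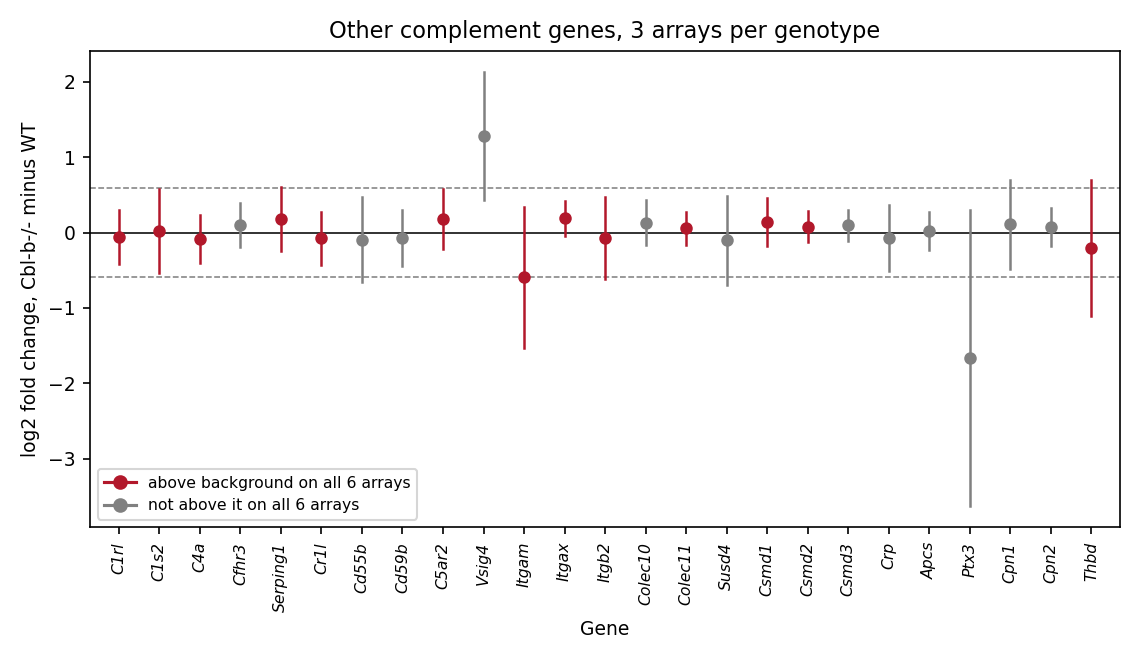
Log2 difference (Cbl-b-/- minus WT, vertical axis) with 95% confidence interval from limma for the 25 other complement genes measured (horizontal axis), dark where the gene was above background on all 6 arrays and grey where it was not, with dashed lines at 1.5-fold. Vsig4 is the only gene whose interval lies clear of 0, and Ptx3 has the widest interval.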

How the data were processed

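Total RNA of dorsal skin from 3 mice per genotype was measured on the Mouse Gene 1.0 ST platform of Affymetrix, with an array for each mouse. The authors summarised the arrays by robust multichip average in Partek (background correction, quantile normalization, median polish) and deposited log2 values, 1 per array and transcript cluster, so spread shared by whole arrays had been removed before deposit. The version of Partek was 6.5 per the submitters' processing notes, while the study's methods name a later version. Rows were named through the platform annotation.

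Genotypes were compared as Cbl-b-/- minus WT with limma 3.58.1 (R 4.3.3; lmFit and eBayes) over all 35556 rows of the deposited log2 values, with Benjamini-Hochberg adjustment over all rows, the methods' per-row test (a one-way comparison with each row's own variance) as an alternative, and an exact permutation test for single values. The fit was tested on simulated data. The number of arrays limits the precision. The complement genes, the other lists and the motifs were chosen with earlier results of these data known. Genes were given array by array when they met the thresholds, had an unadjusted p under 0.05, did not overlap or had the largest difference of their pathway, and further genes were added to show the arrays. Listed genes without a row of 1 symbol were not analysed here. The labels and the table name no batch or scan date. Alternatives were cyclic loess, median centring, an intensity-dependent prior, array weights, a filter on dim rows, a replicate block and leaving out each array.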

Additional observations from a re-analysis of the deposited data

How the results depend on the processing

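With 3 arrays per genotype and a large spread between mice, the sign of the difference depended on a single array in 14 of the 33 complement genes. Median centring and an intensity-dependent prior changed no sign and no call at the study's thresholds among the 33 complement genes, Vsig4 and Itgax. Cyclic loess left 3 complement genes at an unadjusted p under 0.05 and turned Masp2 to −0.014 and Cr2 to −0.033. The methods' per-row test called 267 rows at the thresholds and 2 at an adjusted p, and left 0 complement genes lower. Array weights gave 3651 rows at an unadjusted and 12 at an adjusted p under 0.05, left 0 complement genes higher and 0 lower at the thresholds (Masp1 0.55, Cfb −0.57), and turned C1qb to −0.0062, C1ra to −0.0084 and Cd46 to 0.051. Leaving out dim rows left 235 rows at the thresholds, 1420 at an unadjusted p, and medians over fewer genes of 0.13 in the lectin pathway, −0.16 in the terminal pathway and 0.13 in the receptors. The cause of the other changes was not tested.

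Leaving out each array in turn gave 428 to 790 rows at the thresholds and 1 to 2 at an adjusted p, 0 to 2 complement genes higher and 0 to 2 lower, and 1 to 5 at an unadjusted p under 0.05. The highest count of rows came without Cbl-b-/- replicate 2. The terminal pathway median ran from −0.089 to 0.12 and the classical from −0.12 to 0.36. Differences that changed sign ran from −0.13 to 0.40 in C1qb, −0.25 to 0.091 in C1qc, −0.12 to 0.17 in C1ra, −0.11 to 0.33 in C2, −0.13 to 0.39 in C4b, −0.025 to 0.16 in Mbl1, −0.12 to 0.056 in Mbl2, −0.67 to 0.12 in C7, −0.11 to 0.25 in C5ar1, −0.024 to 0.058 in Cr2, −0.34 to 0.14 in Cd55, −0.18 to 0.30 in Cd59a, −0.12 to 0.12 in Cd46 and −0.039 to 0.32 in Vtn.

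The deviations of arrays from their genotype mean correlated at 0.233, 0.092 and 0.247 over rows for the same replicate number. For unlike numbers the correlations ran from −0.327 to 0.232. The labels state no pairing, so the numbers were not taken as pairs, and whether they are pairs was not settled. The fit with a replicate block gave 453 rows at the thresholds, 1 complement gene higher and 1 lower, and 4 at an unadjusted p under 0.05. In that limma fit the unadjusted p fell to 0.000998 for Cfb, 0.00148 for Masp1 and 0.0150 for Hc. It rose to 0.0252 for Clu and 0.0712 for C8b. The fit with a replicate block moved no count by over 1.5 times. Of the 6 arrays, only WT replicate 2 did not correlate best with its own number. A mean over several rows of a gene was not run because no complement gene had more than 1 row with its symbol alone.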
